A study of Mus musculus with 6 samples.

Results

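Classical monocytes were taken from the single-cell RNA sequencing data of mouse livers as the cells with at least 1 unique molecular identifier (UMI, 1 counted mRNA molecule) of Lyz2 and of at least 2 of the 4 genes Ly6c2, Ccr2, F13a1 and Chil3. Cells with a UMI of any of 11 genes of other liver cells were left out, namely Clec4f, Vsig4 and Cd5l of Kupffer cells, Flt3, Cd209a, Siglech and Xcr1 of dendritic cells, Cxcr2 of neutrophils, Cd3e and Ncr1 of T and natural killer cells, and Mzb1 of plasma cells. This rule found 258 of 11610 cells. Levels of these 16 genes chose the cells, so they are given below as a description, with no test, and were not counted among the genes tested.

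The livers came from 3 wild-type mice and 3 mice lacking the histone deacetylase SIRT7 in the whole body (SIRT7-/-), all 5 to 6 months old, with no agent given and 1 library per mouse. SIRT7-/- mice develop steatohepatitis on a chow diet, and the question here is whether their monocytes differed in number or in expression from those of wild-type mice. Livers were dissociated with collagenase, and each library was loaded with hepatocytes and non-parenchymal cells purified apart, so the share of a cell type in a library also follows the isolation and the mixing. The wild-type libraries held 1243, 933 and 1094 cells with 3109516, 2511947 and 2731232 UMIs, and the SIRT7-/- libraries 5609, 2179 and 552 cells with 11069411, 6065832 and 2572107 UMIs. Cells had median UMIs of 2058, 2040 and 1902.5 in wild-type and of 1630, 2199 and 3875 in SIRT7-/- libraries. In all, 13 cell barcodes occurred in more than 1 library, and 1 of them belonged to a chosen cell.

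Classical monocytes are made in the bone marrow from dividing precursors, leave it through the chemokine receptor CCR2 and circulate for a short time. In an injured liver they enter the tissue, where they can give rise to macrophages that take up lipid, present antigen or replace lost Kupffer cells. Neutrophils arise from related precursors, and while they mature in the marrow they fill their granules with proteins encoded by genes such as Ngp, Camp and Ltf, which monocytes do not make. Ly6c2 and Chil3, which are part of the rule, are also transcribed in those maturing neutrophils.

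The label did not hold for all 258 cells. Among 5 granule genes of maturing neutrophils (Ngp, Camp, Ltf, Retnlg and Mmp8), 193 cells had a UMI of none and 30 of 1. No cell had 2 of them, while 20 cells had 3, 8 had 4 and 7 had all 5. The 35 cells with at least 3 are called granule cells below, and the main results are given with and without them. Promoter sequences of a pair of granule genes that separate these 35 cells from the rest, and of Ly6c2, a rule gene that both kinds of cell shared, are shown here from RefSeq (GRCm38.p6), up to the start of the gene. Capitals mark TTGCNNAA, a motif of the C/EBP factors that drive granule genes, in Ngp and Ltf, and AGGAAGT, a motif of the myeloid factor PU.1, in Ly6c2. In Ltf the motif reads on the opposite strand, so the capitals show its complement read backwards.
Ngp, chr9:110419558-110419746, plus strand: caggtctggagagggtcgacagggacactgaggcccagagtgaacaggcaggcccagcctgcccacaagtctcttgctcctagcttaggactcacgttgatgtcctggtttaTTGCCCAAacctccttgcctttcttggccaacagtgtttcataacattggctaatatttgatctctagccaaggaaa
Ltf, chr9:111019042-111019270, plus strand: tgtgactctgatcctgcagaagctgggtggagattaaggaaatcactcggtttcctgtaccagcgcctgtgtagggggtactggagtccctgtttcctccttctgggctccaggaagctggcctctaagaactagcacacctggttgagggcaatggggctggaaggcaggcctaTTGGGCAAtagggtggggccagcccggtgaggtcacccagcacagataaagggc
Ly6c2, chr15:75111972-75112221, minus strand: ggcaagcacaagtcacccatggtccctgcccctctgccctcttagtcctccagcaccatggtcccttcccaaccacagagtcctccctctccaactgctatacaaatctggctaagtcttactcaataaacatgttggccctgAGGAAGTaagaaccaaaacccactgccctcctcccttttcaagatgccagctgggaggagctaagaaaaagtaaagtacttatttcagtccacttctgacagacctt
The motifs were looked for on both strands of the 250 bases before the RefSeq start, and the last A of TTGCNNAA can be the first A of AGGAAGT, so that matches may overlap. TTGCNNAA was present before 4 of the 5 granule genes (Ngp, Ltf, Retnlg and Mmp8), before none of Ly6c2, Ccr2, F13a1 and Chil3, and in 9.56% of 32851 promoters. AGGAAGT was present before Mmp8 among the granule genes, before Ly6c2 and Chil3 among the rule genes, and in 7.69% of all promoters. A match is a description of the letters and not a binding site. In the mouse genome (GRCm38) Ngp lies on chromosome 9 from 110419747 to 110423012, Ltf on chromosome 9 from 111019271 to 111042767 and Ly6c2 on chromosome 15 from 75108158 to 75111970.

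The granule cells had the RNA of maturing neutrophils and little or none of several monocyte genes. Levels are UMIs of a gene per 10000 UMIs of a cell (CP10K), averaged here over cells. The summed level of the 5 granule genes ran from 379.3 to 1480 CP10K in the granule cells, with a median of 1011, and from 0 to 20 CP10K in the other 223 cells, with a median of 0. In the granule cells, S100a8 and S100a9, which encode the alarmin calprotectin, averaged 1602 and 1533 CP10K, the antimicrobial peptide gene Camp 561.6 CP10K and the iron-binding lipocalin gene Lcn2 121.9 CP10K. Of the 35 cells, 21 had a UMI of the neutrophil surface gene Ly6g and 24 of Cebpe, the factor of late granule formation. Division genes were also present, with Top2a, a topoisomerase of dividing cells, in 16 of the 35 cells and Mki67, a proliferation marker, in 12. Of monocyte genes, Csf1r (the receptor for the monocyte growth factor CSF1) was found in 1 granule cell, Ctss in 1, Ms4a6c in 3, Fn1 in 4, Ccr2 in 4 and F13a1 in none. Plac8 and Ifitm3, which monocytes express but not alone, were found in 21 and 28 granule cells, at 5.39 and 8.63 CP10K. The rule was met by Ly6c2 and Chil3 without Ccr2 in 31 of the 35 cells. Chil3, a chitinase-like protein of myeloid cells, was found in all 35, at 58.61 CP10K.

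The other 223 cells had the RNA of classical monocytes, and part of them also carried antigen presentation genes of MHC class II, described below. Fn1 (fibronectin) was found in 132 of the 223 cells at 10.94 CP10K, Ms4a6c in 174 at 11.46 CP10K, Plac8 in 198 at 31.35 CP10K, Ifitm3 in 219 at 58.09 CP10K and Csf1r in 98 at 3.308 CP10K, and none of these chose the cells. Of the rule genes, Ccr2 was found in 199 cells, Ly6c2 in 161, F13a1 (a coagulation factor subunit) in 127 and Chil3 in 87. All 4 were found together in 26 cells. Other genes of the classical list were in fewer cells, with the integrin gene Itgam in 46, Cd14 in 17, Vcan in 12 and Thbs1 in 5. Of genes listed for non-classical monocytes, which patrol vessels, the integrin gene Itgal was found in 86 cells, Pou2f2 in 70, the fractalkine receptor gene Cx3cr1 in 62, Nr4a1, the factor on which these cells depend, in 21, Treml4 in 20 and Ace in 12. The shares of cells with genes of the 2 lists thus overlapped. Ly6g and Ltf were at 0 UMIs in all 223 cells, and Camp was found in 4 of them. Ly6c2 has a near-identical neighbor, Ly6c1, and reads of the pair can be assigned to the wrong copy.

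**Figure D1:**
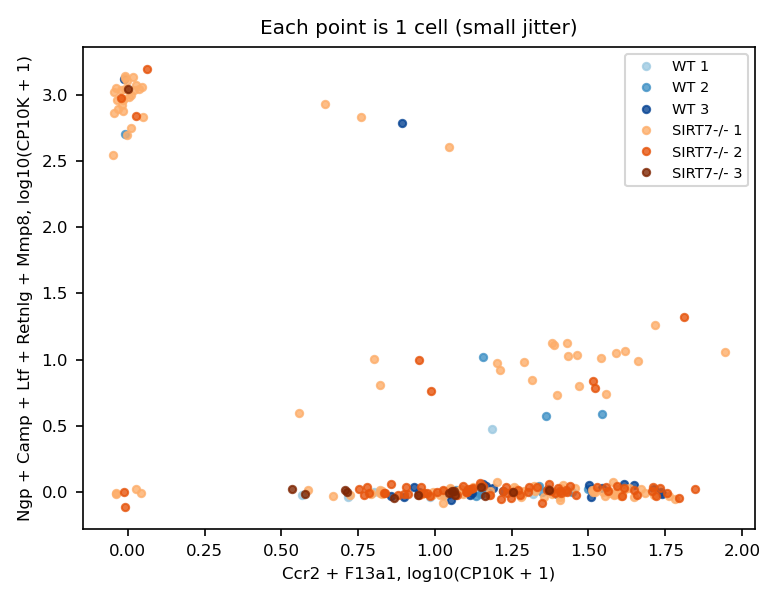
Each point is 1 of the 258 chosen cells, with the summed level of Ccr2 and F13a1 on the x axis and that of Ngp, Camp, Ltf, Retnlg and Mmp8 on the y axis, both as log10 of CP10K plus 1 and with a small jitter. The 35 granule cells lie apart at the top, at 379.3 CP10K or more, and the other 223 cells lie at 20 CP10K or less.

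Cells at the edge of the rule show how it works. The 154 cells with 2 of the 4 rule genes averaged 130 CP10K of Lyz2, the lysozyme gene of myeloid cells, and 7.272 CP10K of Fn1, and 33 of them were granule cells. The 104 cells with 3 or 4 averaged 204.5 CP10K of Lyz2 and 12.87 CP10K of Fn1, and 2 were granule cells. Just outside, the 325 cells with Lyz2 and 1 rule gene averaged 73.9 CP10K of Lyz2 and 2.545 CP10K of Fn1. H2-Ab1, an antigen presentation gene, averaged 53.01 CP10K in them, 24.98 CP10K in the cells with 2 rule genes and 11.06 CP10K in those with 3 or 4. A further 144 cells were left out for 1 exclusion gene alone, with Cd209a (31 cells), Cd5l (28) and Cd3e (25) the most frequent.

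By mouse, 8, 12 and 25 cells met the rule in wild-type livers, against 120, 78 and 15 in SIRT7-/- livers. As a share of all cells this was 0.644% (95% exact binomial interval 0.278 to 1.26), 1.29% (0.666 to 2.24) and 2.29% (1.48 to 3.36) in wild-type mice and 2.14% (1.78 to 2.55), 3.58% (2.84 to 4.45) and 2.72% (1.53 to 4.44) in SIRT7-/- mice, intervals that cover counting error only. The wild-type mouse with the highest share exceeded the lowest SIRT7-/- mouse, so the genotypes overlapped. The means were 1.41% ± 0.827 (SD, n = 3) and 2.81% ± 0.725 (SD, n = 3), a difference of 1.41 points that the exact permutation test did not separate from the spread between mice (two-sided p = 0.2, where 3 mice against 3 can reach 0.1). Of cells with a UMI of Ptprc, the leukocyte gene CD45, the chosen cells were 3.14% ± 1.11 in wild-type and 3.84% ± 1.74 in SIRT7-/- mice (SD, n = 3 each, exact permutation p = 0.7). With every cell thinned to 1000 UMIs the shares were 1.19% ± 0.954 and 2.04% ± 1.05 (SD, n = 3 each, exact permutation p = 0.4), after 107, 134 and 217 wild-type and 1025, 240 and 28 SIRT7-/- cells with fewer UMIs had been left out.

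The granule cells were unevenly spread. There were 0, 1 and 2 of them in the wild-type mice and 28, 3 and 1 in the SIRT7-/- mice, so SIRT7-/- mouse 1 alone held 28 of 35, and they made up 23.3% of its chosen cells. Without them the chosen cells numbered 8, 11 and 23 in wild-type and 92, 75 and 14 in SIRT7-/- mice, 1.31% ± 0.738 against 2.54% ± 0.901 of all cells (SD, n = 3 each, exact permutation p = 0.2). The summed level of 18 neutrophil markers, led by S100a8, was 11.0, 161.9 and 370.7 CP10K in the wild-type and 1038, 150.8 and 354.4 CP10K in the SIRT7-/- mice over all chosen cells. In the 223 cells it was 11.0, 10.4 and 8.48 against 27.1, 4.88 and 5.23 CP10K, with 4 of the 18 genes at 0 in every mouse. S100a8 was found in 18.6% of the T cells of SIRT7-/- mouse 1, a cell type that does not make it, and in 0% to 5.88% of the T cells of the other mice (T cells are cells with Cd3e and Cd3d or Cd3g, 17 to 397 per mouse).

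**Figure D2:**
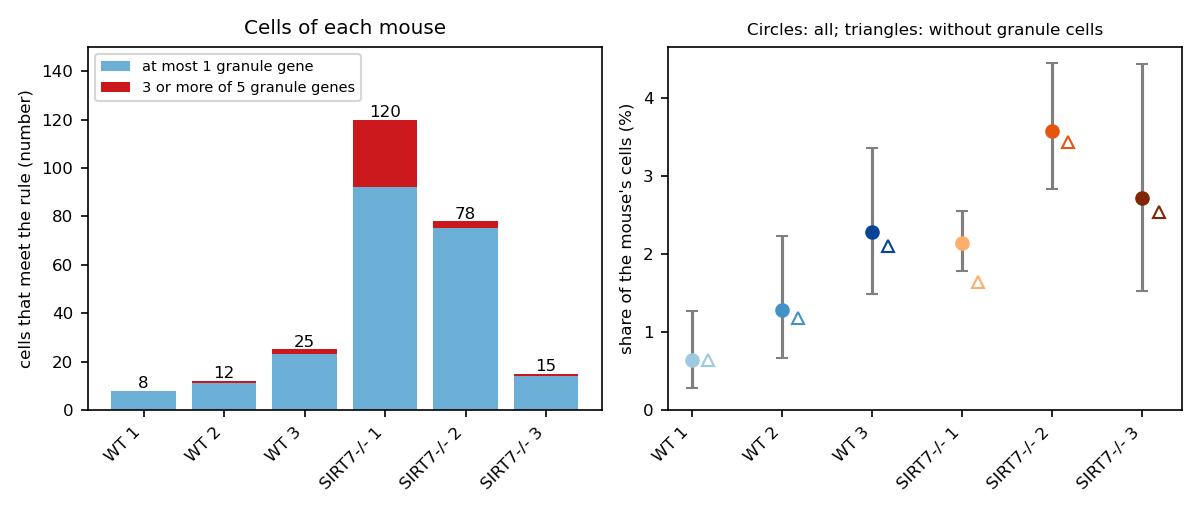
Left, the number of chosen cells in each of 3 wild-type and 3 SIRT7-/- mice, with granule cells stacked apart, and right, their share of all cells in percent with 95% exact binomial intervals, for all chosen cells and without granule cells. Mouse 1 of the SIRT7-/- group holds 28 of the 35 granule cells, and the shares of the genotypes overlap with and without these cells.

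Levels per mouse are means over its cells, given as wild-type mice 1, 2 and 3 and then SIRT7-/- mice 1, 2 and 3. Among the rule genes in the 223 cells, Ly6c2 had 5.274, 7.436 and 5.535 CP10K in wild-type against 11.31, 14.66 and 11.32 CP10K in SIRT7-/- mice, and the genotypes did not overlap. Ccr2 had 5.621, 16.1 and 15.99 against 13.77, 17.53 and 8.336 CP10K, and F13a1 had 3.855, 3.827 and 6.875 against 9.337, 3.808 and 1.394 CP10K. Both overlapped, as did Chil3 (8.363, 2.879 and 4.97 against 9.688, 4.536 and 2.256 CP10K) and Lyz2 (248, 214.3 and 134.8 against 201.4, 133.5 and 153.4 CP10K). Since a cell was chosen for having these genes, their levels are given with no test. Lyz2 was also found in T cells, in 2.27%, 3.51% and 27.2% of them in wild-type and 45.1%, 23.4% and 5.88% in SIRT7-/- mice, whereas F13a1 was found in at most 2.72% and Chil3 in at most 1.77%. Ccr2 was found in 27.0% to 57.0% and Ly6c2 in 11.8% to 30.7% of the T cells of a mouse, against 82.6% to 100% and 62.5% to 78.7% of the 223 cells.

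Sirt7 itself (chromosome 11, 120618372 to 120625240) was barely measured in these cells. Its UMIs numbered 5, 2 and 0 in the chosen cells of wild-type mice and 0 in each SIRT7-/- mouse, where a count of 0 allows up to 0.1183, 0.195 and 0.5017 CP10K (3 UMIs of the mouse's total over the chosen cells). The third wild-type mouse had no UMI either, with an upper limit of 0.6439 CP10K, so it could not be told from the SIRT7-/- mice at this depth. Wild-type mice 1 and 2 were at 1.424 and 0.4004 CP10K, above the limits of SIRT7-/- mice 1 and 2 but resting on few UMIs. Wild-type mouse 2 was below the limit of SIRT7-/- mouse 3. Over all cells of a library Sirt7 was at 0.718, 0.512 and 0.546 CP10K in wild-type and at 0.1, 0.0814 and 0.139 CP10K in SIRT7-/- mice, which did not overlap (two-sided exact permutation p = 0.1, the smallest possible with 3 against 3). Pcyt2, which encodes an enzyme of phosphatidylethanolamine synthesis and is the neighbor of Sirt7 (120610087 to 120617936), had 2, 7 and 2 UMIs in the chosen wild-type cells and 1, 0 and 0 in the SIRT7-/- cells, at 0.5914, 1.624 and 0.5017 against 0.07092, 0 and 0 CP10K. Its fitted log2 fold change was -3.84 with an adjusted p of 0.507 (limma, 5 mice), so it did not pass, while it passed with the mean of the logged values, with voom on summed UMIs and when Flt3 and Cd209a were not used. Over all cells Pcyt2 was at 5.05, 3.68 and 1.58 CP10K in wild-type and at 0.0857, 0.0613 and 0.0955 CP10K in SIRT7-/- mice (two-sided exact permutation p = 0.1, the smallest possible).

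Across the transcriptome, the chosen cells of SIRT7-/- and wild-type mice, granule cells included unless stated, were compared by limma on the log2 of each mouse's mean CP10K plus 0.05, with p-values adjusted by the Benjamini-Hochberg method over all genes tested. The 5 mice with at least 10 chosen cells entered, which leaves out wild-type mouse 1 with 8 cells. Of 9179 genes 2 passed an adjusted p of 0.05, which is 0.0218% of those tested. Car3 fell and Cd9 rose. At an unadjusted p under 0.05 there were 614 genes (6.69%), 329 higher (3.58%) and 285 lower (3.1%). With wild-type mouse 1 included, 36 of 9108 genes passed (0.395%), 10 higher (0.11%) and 26 lower (0.285%). Without granule cells 1 of 9198 genes passed with 5 mice (0.0109%), which was Car3, and 544 had an unadjusted p under 0.05 (5.91%). With 6 mice 20 of 9110 passed there (0.22%), 8 higher (0.0878%) and 12 lower (0.132%). The mice were given as separate animals, and p-values rest on the spread between them. For each gene limma drew that spread toward a trend over all genes, so p-values do not measure a gene's own spread alone. With 6 mice Car3 had an unadjusted p of 2.4e-14 (limma) from 3 mice against 3, which rests on that shared spread. Counts of genes that passed are to be read with this limit.

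Car3 (chromosome 3, 14863512 to 14872523), a carbonic anhydrase that is abundant in hepatocytes, was the gene that fell. It was at 7.032, 7.376 and 6.03 CP10K in the chosen cells of wild-type mice and at 1.168, 0.6077 and 0.4424 CP10K in those of SIRT7-/- mice. The lowest wild-type mouse was above the highest SIRT7-/- mouse, and the log2 fold change was -3.20 (SE 0.476, 95% interval -4.17 to -2.22, adjusted p = 0.00303, limma, 5 mice). Without granule cells it was -3.01 (SE 0.483, adjusted p = 0.0033, limma). These values rest on 23, 29 and 26 UMIs in wild-type and 29, 10 and 3 UMIs in SIRT7-/- mice, and without wild-type mouse 2, wild-type mouse 3, SIRT7-/- mouse 2 or SIRT7-/- mouse 3 the adjusted p rose to 0.136, 0.0991, 0.749 and 0.323 (limma).

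Car3 was also found in cells of other lineages of the same livers, where every SIRT7-/- mouse was again below every wild-type mouse. In T cells Car3 had 7.825, 8.237 and 5.857 CP10K in wild-type and 2.312, 0.8196 and 1.553 CP10K in SIRT7-/- mice. In Kupffer cells, the resident macrophages (cells with Clec4f and with Vsig4 or Cd5l), Car3 had 4.966, 6.073 and 4.689 against 1.38, 0.3847 and 2.101 CP10K. A UMI of Car3 was found in 92.6%, 91.2% and 63.3% of wild-type T cells and in 75%, 100% and 65.2% of the wild-type cells among the 223, and in SIRT7-/- mice in 28.3%, 11.1% and 29.4% of T cells and 13.04%, 12% and 14.29% of the 223. The share among the 223 was above that in T cells in 3 mice (wild-type mice 2 and 3 and SIRT7-/- mouse 2) and below it in the other 3. Median depths of the T cells were 2712, 2688, 1757, 1747, 2947 and 3563 UMIs, against 4126, 4029, 1645, 1190, 1659 and 4198 UMIs in the 223 cells. The log2 fold change of Car3 in the chosen cells minus that in Kupffer cells was -0.91 (95% interval -3.04 to 1.23, adjusted p = 0.835, limma).

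Car3 is 1 of 20 hepatocyte markers, all detected in the chosen cells. Of the 20, 18 were lower in SIRT7-/- mice with a median log2 fold change of -1.16, beside 49.0% of all genes higher and a median of -0.03 over all genes, and Car3 alone passed with 5 mice, while 8 of the 20 passed with 6 (limma). Their summed level, led by Apoc1, was 240.9, 219.6 and 175.8 CP10K in the wild-type and 160.4, 67.5 and 115.1 CP10K in the SIRT7-/- chosen cells, and without granule cells 240.9, 186.6 and 174.1 against 185.3, 69.7 and 118.7 CP10K, where the genotypes overlapped. In T cells of the same mice it was 402.1, 290.8 and 169.6 against 229.6, 50.3 and 149.8 CP10K. The apolipoprotein gene Apoa2 followed the same order, at 39.94, 37.75 and 35.14 against 24.37, 8.713 and 17.2 CP10K in the chosen cells. Of the 26 lower genes with 6 mice, 21 were at least 5 times higher in the 961 cells of the series with over 100 CP10K of albumin RNA than in the 223 cells, and of the 10 higher genes 0 were. The share of all tested genes at that ratio was not counted, so these counts have no background to be read against. The part of free hepatocyte RNA in these differences was not tested.

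**Figure D3:**
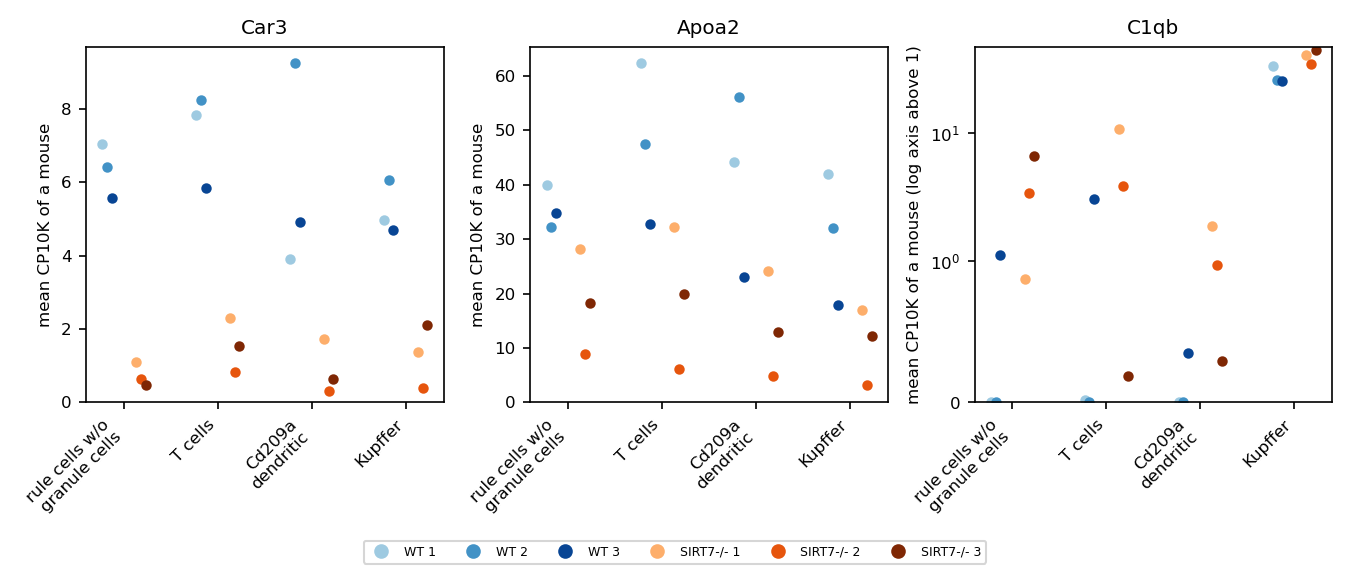
Mean CP10K of Car3, Apoa2 and C1qb in each mouse (points) for the 223 chosen cells without granule cells, T cells, Cd209a dendritic cells and Kupffer cells, with a log axis above 1 for C1qb. Car3 does not overlap between the genotypes in any of the 4 cell types and is lower in SIRT7-/- mice, and C1qb is far higher in Kupffer cells, at 25.6 to 44.7 CP10K, than in the chosen cells.

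Cd9 (chromosome 6, 125460266 to 125494791), a tetraspanin of lipid-associated macrophages and other cells, was the gene that rose. It was at 0, 0 and 0.2125 CP10K in wild-type and at 1.41, 1.127 and 4.559 CP10K in SIRT7-/- mice, a log2 fold change of 4.12 (SE 0.744, 95% interval 2.59 to 5.65, adjusted p = 0.033, limma, 5 mice). SIRT7-/- mouse 1 had 59 UMIs of Cd9 in all its chosen cells and 4 without granule cells. Without them Cd9 had 0 UMIs in each wild-type mouse and 4, 17 and 25 UMIs in the SIRT7-/- mice, in 4 of 92, 11 of 75 and 6 of 14 cells, and the adjusted p was 0.39 (limma). The SIRT7-/- mice were thus still all above the wild-type mice, but Cd9 did not pass. It did pass without them, with 5 mice, at a pseudocount of 0.2 CP10K and with the replicate number as a block. In all chosen cells it also fell short of the threshold without wild-type mouse 2, wild-type mouse 3 or SIRT7-/- mouse 1, 2 or 3, with adjusted p of 0.201, 0.0618, 0.35, 0.836 and 0.872 (limma). In T cells Cd9 was found in 6.14% to 12.9% of wild-type and 11.8% to 17.1% of SIRT7-/- cells, so that its share in the monocytes was above that in T cells in SIRT7-/- mouse 3 alone.

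**Figure D4:**
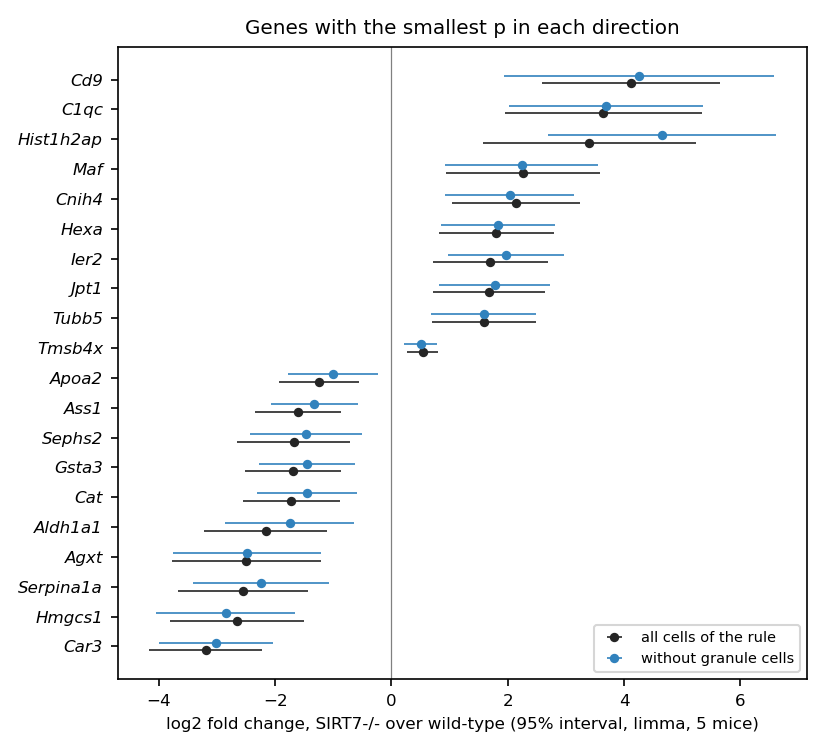
Log2 fold change of SIRT7-/- over wild-type mice with its 95% interval (limma, 5 mice) for 20 genes named by rule, for all chosen cells in black and without granule cells in blue. Car3 passed in both fits and Cd9 in all chosen cells only, while the others did not pass.

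The genes with the smallest p after Car3 and Cd9 did not pass with 5 mice, and some passed with 6. They were picked among genes whose genotypes did not overlap in the 5 mice of the fit, so a lack of overlap there is no result. Hmgcs1, an enzyme at the head of cholesterol synthesis, was at 1.28, 2.295 and 2.973 CP10K in the chosen cells of wild-type mice and at 0.2909, 0.4334 and 0.4046 CP10K in those of SIRT7-/- mice (log2 fold change -2.66, SE 0.562, adjusted p = 0.111 with 5 mice and 0.0157 with 6, limma). The levels rest on 4, 10 and 13 UMIs against 5, 9 and 3, and T cells had 0.9379, 2.328 and 3.093 against 0.6373, 0.5487 and 0.418 CP10K of Hmgcs1. The urea cycle gene Ass1 was at 7.685, 8.773 and 7.919 against 3.331, 2.952 and 2.022 CP10K, and Agxt, an enzyme of glyoxylate metabolism in hepatocytes, at 2.105, 1.933 and 2.182 against 0.472, 0.4541 and 0.1477 CP10K (adjusted p = 0.183 and 0.252, limma, 5 mice). On the other side, the actin-binding thymosin gene Tmsb4x was at 205.8, 164.5 and 189.8 against 252.2, 249.8 and 267.4 CP10K (log2 fold change 0.54, SE 0.129, adjusted p = 0.196 with 5 mice and 0.0157 with 6, limma). T cells of the same livers had 158.3, 158.5 and 151.3 against 214.8, 241.1 and 165.7 CP10K of Tmsb4x, so SIRT7-/- mice were the higher ones in both cell types. The lysosomal hexosaminidase gene Hexa, at 2.146, 0.7455 and 0.5216 against 1.959, 2.194 and 2.854 CP10K, and the early response gene Ier2, at 2.696, 0.5102 and 0.888 against 2.146, 2.688 and 2.113 CP10K, overlapped once wild-type mouse 1 was counted.

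Genes of monocyte-to-macrophage differentiation and lipid handling were mostly higher in SIRT7-/- cells. Of 26 such genes tested, 23 were higher with a median log2 fold change of 1.16, beside -0.03 for all genes, and Cd9 passed. Without granule cells 25 of 26 were higher, beside 49.7% of all genes, with a median of 1.49, and none passed, while 12 had an unadjusted p under 0.05, beside 5.91% of all genes in either direction (limma). The summed level of the list in the 223 cells was 61.4, 40.3 and 47.9 CP10K in wild-type and 63.1, 73.5 and 114.3 CP10K in SIRT7-/- mice, lowest in wild-type mouse 2 and highest in SIRT7-/- mouse 3, and the genotypes did not overlap. Over all chosen cells it was 61.4, 41.4 and 46.1 against 55.3, 71.8 and 108.7 CP10K, and the genotypes overlapped. In Kupffer cells the genotypes did not overlap, and the sum was 348.9, 277.7 and 288.5 against 468.9, 356.6 and 387.2 CP10K. They overlapped in T cells, at 43.8, 38.0 and 52.8 against 134.9, 48.2 and 27.9 CP10K. In Cd209a dendritic cells they overlapped too, at 48.4, 39.6 and 35.8 against 57.8, 34.4 and 41.1 CP10K. The lysosomal protease gene Ctsb was at 8.643, 4.795 and 2.067 against 4.267, 11.29 and 20.54 CP10K and overlapped. Apoe, a lipid carrier and the most abundant gene of the list, was at 16.42, 11.52 and 17.72 against 20.71, 8.506 and 18.33 CP10K and overlapped (log2 fold change 0.05 without granule cells, adjusted p = 0.985, limma). The galectin gene Lgals3 was at 14.75, 11.7 and 12.6 against 19.69, 16.16 and 16.71 CP10K, higher in every SIRT7-/- mouse (log2 fold change 0.52 without granule cells, 95% interval -0.02 to 1.06, adjusted p = 0.773, limma).

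The complement genes C1qa, C1qb and C1qc, which macrophages express and circulating monocytes mostly do not, made up part of this list. With 6 mice all 3 passed in the 223 cells, and with 5 mice none did (C1qc log2 fold change 3.69, adjusted p = 0.156, limma), although all 3 passed with 5 mice at a pseudocount of 0.2 CP10K and with the replicate number as a block. C1qb was at 0, 0 and 1.1 CP10K in wild-type and 0.8715, 3.405 and 6.632 CP10K in SIRT7-/- mice, and wild-type mouse 3 was above SIRT7-/- mouse 1. These UMIs sat in few cells. Grouped after their values were seen, 12 of the 223 cells had at least 2 of the 3 genes, and they held 99 of 108 UMIs of C1qa, 136 of 148 of C1qb and 79 of 86 of C1qc. Of the 12 cells 0, 0 and 1 came from wild-type mice and 2, 7 and 2 from SIRT7-/- mice, and in SIRT7-/- mouse 3 a pair of cells held all 57 of its C1qb UMIs. They also held 23 of 53 UMIs of Maf, a factor of macrophage differentiation, and 42 of 597 UMIs of Ccr2, but 3 of 46 UMIs of Cd9. In T cells C1qb was found in 0.568%, 0% and 12.9% of wild-type and 36.7%, 16.6% and 5.88% of SIRT7-/- cells, against 0%, 0% and 4.35% and 8.70%, 10.7% and 14.3% of the monocytes, a share above that in T cells in SIRT7-/- mouse 3 alone (2 of 14 cells). Of 14 Kupffer cell markers, 4 were at 0 in every mouse in the 223 cells (Clec4f, Vsig4 and Cd5l by the rule, and Marco), and the summed level, led by Id3, was 3.49, 2.73 and 5.36 against 6.50, 11.7 and 19.6 CP10K. The part of Kupffer cell RNA was not tested.

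Classical monocyte genes lay on both sides. Of 30 such genes outside the rule 13 were higher and 17 lower in SIRT7-/- cells, with a median log2 fold change of -0.02, and none passed (2 higher and 1 lower at an unadjusted p under 0.05, limma). Without granule cells 16 were higher and 14 lower, with a median of 0.01, and in all chosen cells of 6 mice 17 were higher and 13 lower, with a median of 0.07. In the 223 cells their summed level was 253.0, 245.2 and 213.2 CP10K in wild-type and 247.6, 283.8 and 268.1 CP10K in SIRT7-/- mice. It was 40.2 to 59.8 CP10K in T cells, 80.7 to 109.3 CP10K in Kupffer cells and 120.2 to 180.7 CP10K in Cd209a dendritic cells. Plac8 was at 24.58, 22.44 and 21.85 against 24.03, 43.97 and 38.35 CP10K, with SIRT7-/- mouse 1 at the wild-type level. Fn1 was at 9.505, 12.91 and 15.51 against 12.7, 8.39 and 4.794 CP10K and Csf1r at 5.705, 4.858 and 3.368 against 2.081, 4.173 and 4.057 CP10K, and both overlapped. Cebpb, a factor of monocyte survival and stress responses, was at 21.34, 13.61 and 9.67 against 17.15, 21.86 and 24.31 CP10K, and overlapped (adjusted p = 0.717 in all chosen cells, limma, 5 mice). Of 18 non-classical monocyte genes 14 were higher, with a median of 0.81, beside 49.0% of all genes and a median of -0.03, and none passed (2 higher at an unadjusted p under 0.05, beside 3.58% of all genes, limma). Their summed level in the 223 cells was 9.77, 14.0 and 12.2 against 10.3, 19.5 and 24.5 CP10K.

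**Figure D5:**
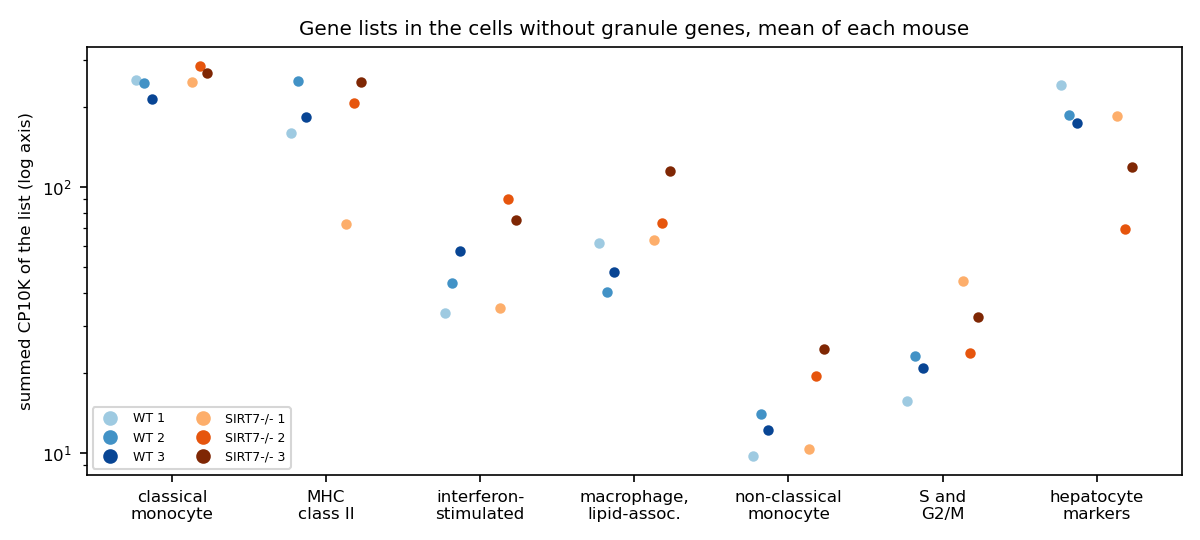
Summed mean CP10K (log axis) of the genes of 7 lists in the 223 chosen cells without granule cells, 1 point per mouse, for 3 wild-type and 3 SIRT7-/- mice. The classical monocyte list lies between 213.2 and 283.8 CP10K in all 6 mice, and the MHC class II list is lowest, at 72.4 CP10K, in SIRT7-/- mouse 1.

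Antigen presentation genes of MHC class II were lowest in SIRT7-/- mouse 1. Of 11 genes tested 10 were lower in SIRT7-/- cells, with a median log2 fold change of -0.56, beside 49.0% of all genes higher and a median of -0.03. None passed (2 lower at an unadjusted p under 0.05, beside 3.1% of all genes, limma). Without SIRT7-/- mouse 1 the median was 0.11, on the other side. Cd74, the invariant chain and the most abundant of them, was at 86.85, 126.4 and 82.1 CP10K in wild-type and 30.63, 91.92 and 122.8 CP10K in SIRT7-/- mice of the 223 cells. H2-Ab1 was at 15.89, 36.23 and 25.34 against 10.61, 33.12 and 27.38 CP10K. Mouse 1 of the SIRT7-/- group was thus the low one for both, and the other two lay within the wild-type range. At 1000 UMIs per cell Cd74 was still found in 29 of 59 cells of that mouse, against 40 of 61 and 4 of 6 in the other SIRT7-/- and 5 of 6, 5 of 6 and 12 of 19 in the wild-type mice. Over all 258 chosen cells Cd74 was found in 158 and H2-Ab1 in 115, so the means mix cells with and without this RNA. The summed level of the list in the 223 cells was 72.4 to 251.3 CP10K. It was 146.7 to 266.4 CP10K in Kupffer cells and 408.7 to 618.1 CP10K in Cd209a dendritic cells. Single chosen cells reached these dendritic means. H2-Aa, H2-Ab1, H2-Eb1 and Cd74 alone summed to 540.7 CP10K in a cell of wild-type mouse 2 and to 788.2 CP10K in a cell of SIRT7-/- mouse 3. Whether such cells are dendritic cells was not tested.

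Interferon-stimulated genes were high in SIRT7-/- mice 2 and 3. Of 34 tested 21 were higher, with a median log2 fold change of 0.46, beside 49.0% of all genes and a median of -0.03. None passed, and 2 were higher and 2 lower at an unadjusted p under 0.05, beside 3.58% and 3.1% of all genes (limma). Their summed level in the 223 cells was 33.6, 43.3 and 57.2 CP10K in wild-type and 35.0, 90.1 and 75.2 CP10K in SIRT7-/- mice. Ifi27l2a, the most abundant, was at 19.08, 20.46 and 22.02 against 17.07, 40.64 and 38.53 CP10K, and Isg15, a ubiquitin-like protein, at 0.6078, 0.2245 and 0.4995 against 0.927, 2.534 and 2.027 CP10K. Isg15 was thus higher in every SIRT7-/- mouse, with an adjusted p of 0.507 in all chosen cells (limma, 5 mice). SIRT7-/- mice 2 and 3 also had the highest sums of this list in Kupffer cells, at 27.5, 30.0 and 36.1 against 29.3, 81.5 and 82.5 CP10K, and in T cells, at 18.6, 20.4 and 23.7 against 20.4, 51.7 and 32.5 CP10K.

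Cell cycle genes lay mostly on the higher side. Of 32 genes of the S and G2/M phases 30 were higher in SIRT7-/- cells with a median log2 fold change of 1.29, beside 49.0% of all genes higher and a median of -0.03. At an unadjusted p under 0.05 there were 10 higher genes of the list, beside 3.58% of all genes, and none passed with 5 mice (limma). The summed level in all chosen cells was 15.7, 23.4 and 24.7 CP10K in wild-type and 56.6, 26.0 and 31.3 CP10K in SIRT7-/- mice. Granule cells carried part of it, and without them it was 15.7, 23.0 and 20.8 against 44.4, 23.7 and 32.3 CP10K, with 27 of 29 tested genes higher. Mki67 was found in none of the 8, 11 and 23 wild-type cells and in 8 of 92, 2 of 75 and 2 of 14 SIRT7-/- cells, shares of 8.70%, 2.67% and 14.3%. In T cells Mki67 was found in 2.27%, 7.02% and 6.80% of wild-type and 9.29%, 33.0% and 11.8% of SIRT7-/- cells, and the summed level of the list there was 16.1, 28.6 and 26.5 against 36.1, 99.96 and 25.2 CP10K, which overlapped. In Kupffer cells the summed level of the list lay the other way, at 32.0, 43.7 and 35.0 CP10K in wild-type against 12.9, 27.1 and 22.1 CP10K in SIRT7-/- mice, without overlap. Tubb5 (chromosome 17, 35833921 to 35838306), a tubulin gene of dividing cells, was at 0.3253, 1.047 and 1.196 CP10K in the wild-type and 4.006, 2.317 and 4.554 CP10K in the SIRT7-/- mice over all chosen cells. Every SIRT7-/- mouse was above every wild-type mouse, with a log2 fold change of 1.597 (SE 0.434, adjusted p = 0.443, limma, 5 mice) that passed with 6 mice (2.14, SE 0.463, adjusted p = 0.00305, limma).

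Cytokines, receptors and sensors of microbes also lay on both sides. Of 21 cytokine, chemokine and NF-kB feedback genes 10 were higher and 11 lower (median -0.11). The monocyte attractant Ccl2 was at 0, 0.2235 and 0 CP10K in wild-type and at 0.2293, 1.106 and 1.461 CP10K in SIRT7-/- mice of the 223 cells, where the wild-type levels rest on 1 UMI over all chosen cells. Of 23 adhesion and chemotaxis receptors 7 were higher and 16 lower (median -0.35). Among these the integrin gene Itga4 was at 3.602, 6.186 and 5.775 against 2.12, 3.779 and 2.147 CP10K and the hyaluronan receptor Cd44 at 4.585, 4.127 and 6.793 against 2.872, 3.399 and 2.301 CP10K. Cd44 did not overlap between genotypes and Itga4 did, and neither passed (adjusted p = 0.639 for Itga4 and 0.773 for Cd44, limma). Of 29 pattern recognition, Fc receptor and oxidase genes 14 were higher and 15 lower (median 0.00), with Cybb, the catalytic subunit of the phagocyte oxidase, at 10.86, 18.86 and 24.92 against 11.35, 18.66 and 8.404 CP10K. None of these 3 groups had a gene that passed, and at an unadjusted p under 0.05 there were 3, 2 and 2 genes higher and 1, 4 and 1 lower (limma). Over all genes 49.0% were higher, the median was -0.03, and 3.58% were higher and 3.1% lower at that p.

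Stress, translation and respiration genes lay on both sides as well. Of 18 integrated stress response genes 12 were higher (median 0.30), while their factor Atf4 was at 0.9232, 1.776 and 1.363 CP10K in wild-type and 1.414, 1.088 and 0.6374 CP10K in SIRT7-/- cells of the 223. Of 22 genes of endoplasmic reticulum chaperones and the unfolded protein response 12 were higher (median 0.08), and the chaperone BiP (Hspa5) was at 3.268, 3.896 and 6.022 against 2.368, 3.766 and 6.781 CP10K. Of 82 cytosolic ribosomal protein genes 38 were higher and 44 lower (median -0.02), and of 75 respiratory chain genes 26 were higher and 49 lower (median -0.20, and -0.06 without granule cells). Of 19 immediate-early genes, which tissue dissociation can induce, 9 were higher and 10 lower (median 0.00). Of the other sirtuins 3 were tested and all 3 were higher, and Sirt2 had 3, 0 and 0 UMIs in wild-type and 8, 10 and 5 UMIs in SIRT7-/- mice, or 0.9134, 0 and 0 against 0.3378, 0.7656 and 0.6903 CP10K. No gene of these 6 groups passed with 5 mice, and at an unadjusted p under 0.05 there were 2, 0, 1, 1, 1 and 1 genes higher and 1, 0, 1, 2, 1 and 0 lower in the order given (limma), against the same shares of all genes.

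Markers of the remaining cell types were few. Of T, NK and innate lymphoid markers 10 were tested, 7 of them higher. Of dendritic cell markers 6 were tested, 3 of them higher. Of B and plasma cell markers 8 were tested, 1 of them higher. Of endothelial and stellate cell markers 5 were tested, 4 of them higher, and of peritoneal macrophage markers 2, both higher. None passed, nor did any of them at an unadjusted p of 0.05 (limma), and no basophil, mast cell, erythroid or platelet marker reached the minimum level of 0.05 CP10K in the fit of 5 mice.

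Whether the genotype difference of the chosen cells differed from that of other myeloid cells was tested as a difference of fold changes. Against Kupffer cells 0 of 8547 genes passed (706 at an unadjusted p under 0.05, 8.26%, limma). Against Cd209a dendritic cells, where 1 wild-type mouse was set against 3 SIRT7-/- mice that had 10 cells of both types, 0 of 8349 genes passed (898 at an unadjusted p under 0.05, 10.8%, limma), and with a single wild-type mouse this count says little. Cd9 had a log2 fold change 2.67 higher in the chosen cells than in Kupffer cells (95% interval 0.22 to 5.12, adjusted p = 0.591, limma), and Tubb5 2.22 higher (95% interval 0.22 to 4.22, adjusted p = 0.583, limma). Both values include granule cells, which held most Cd9 UMIs of SIRT7-/- mouse 1, where 4 remained without them. Without granule cells 0 genes passed against Kupffer cells as well (limma).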

How the data were processed

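Cells were freed from livers of wild-type and SIRT7-/- mice, 3 of each, by collagenase perfusion and sequenced with 10x Genomics Chromium 3′ chemistry, 1 library per mouse. Per the submitters' processing notes, reads were aligned to mm10 with Cell Ranger 6.0.0. Per the study's methods, Scanpy was then used to remove cells with under 500 genes or over 5% mitochondrial reads and genes found in fewer than 3 cells, which left 11610 cells and 16623 genes, the numbers in the table analysed here. The authors deposited 1 table of natural log values, ln of (UMIs scaled to 10000 per cell, plus 1), with the mouse given by the ending of each cell's barcode. No column of per-sample values was left unused (0).

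UMIs were worked back from the values, and all 12961041 values above 0 came out within 0.02 of a whole number. Levels were averaged over the cells of each mouse as CP10K. Since the deposited values are not counts, the main test was limma 3.58.1 (trend and robust, R 4.3.3) on log2 of the mouse mean plus 0.05 CP10K, for genes that averaged 0.05 CP10K or more, in mice with at least 10 chosen cells and with no covariate. Fold changes on this scale understate the change of low genes. Shares were compared by an exact permutation test over 3 mice against 3. No doublet caller was run beyond the exclusion genes, and leaving out cells with over 2 times the median UMIs of their mouse was an alternative.

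The members and the gene lists were chosen with earlier results of these data known. Genes were named by rule: Sirt7 and Pcyt2, the rule genes, the 4 most abundant genes of each list, and up to 10 genes per direction that passed, averaged 0.5 CP10K or more and did not overlap between genotypes, filled up by smallest p among those that averaged 1 CP10K or more. Other genes were chosen after their values were seen. Alternatives were other pseudocounts, filters, cell minimums and rules, voom on summed UMIs, a block for the replicate number, and leaving out each mouse. The fit without granule cells under further settings was added after seeing the data.

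Pairing by replicate number was not seen: same-numbered mice of the 2 genotypes had correlations of deviations of -0.027, -0.0172 and -0.0275 over 2895 genes. Means over few cells carry counting noise that can hide such a correlation, so this check cannot exclude pairing. With 8 to 120 chosen cells and 33605 to 253490 UMIs per mouse, genes under about 1 CP10K rest on a few UMIs.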

Additional observations from a re-analysis of the deposited data

How the results depend on the processing

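The count of genes that passed depended on the settings. With 2 genes for all chosen cells as the starting value, 0 passed with a pseudocount of 0.01 CP10K, in mice with at least 20 cells, or without trend and robust estimation, 4 with a mean of at least 0.5 CP10K or without cells over 2 times the median UMIs, and 8 with voom on summed UMIs. A larger count passed with the mean of the logged values (16), a pseudocount of 0.2 CP10K (21), no filter on low values (26) and mice with at least 5 cells (36), which adds wild-type mouse 1. That mouse also entered when 3 of the 4 rule genes were needed (7 genes, with a minimum of 5 cells) and when Flt3 and Cd209a were not used (41 genes), so both the rule and the mice differ there. Leaving out 1 mouse at a time gave 0 to 5 genes: 5 without wild-type mouse 2, 2 once SIRT7-/- mouse 1 was left out and 0 without wild-type mouse 3, SIRT7-/- mouse 2 or SIRT7-/- mouse 3. Leaving out a wild-type mouse leaves 1, which is assumed to vary like the SIRT7-/- mice. Without granule cells the count of 1 became 15 with a pseudocount of 0.2 CP10K, 6 with voom, 20 in mice with at least 5 cells, 0 without trend and robust estimation and 0 to 5 with 1 mouse left out (5 without wild-type mouse 2), all chosen after seeing the data. The cause of these changes was not tested. The median log2 fold change over all genes was -0.44 with voom, 0.19 with no filter and 0.10 with 6 mice, against -0.03, and directions of single genes are to be read against it. With the replicate number as a block 48 genes passed in all chosen cells and 36 without granule cells, although it is not known that the numbers pair the mice. The difference from Kupffer cells had 0 genes under every setting with more than 1 wild-type mouse. In mice with at least 20 cells 1 wild-type mouse remained, and the genes that came out there were all neutrophil genes (Camp, Lcn2, Ltf, Ngp, S100a8 and S100a9). The difference from Cd209a dendritic cells rested on 1 wild-type mouse under every setting run, so its counts say little. For the latter no block and no fit without wild-type mouse 3 could be made, since too few mice remained. Shares were higher in SIRT7-/- mice under every alternative run. Their exact permutation test cannot give a p below 0.1, so no alternative could have crossed the threshold. Sirt7 passed under no setting. Its UMIs in the chosen cells came from wild-type mice 1 and 2 alone, so fits that left out both mice could show no direction for it. Of 1475 values of 78 named genes under alternatives, 1384 stayed on their side of the threshold, 72 passed where they had not and 19 no longer passed. No value that passed there or at first changed sign (0), but 88 values of 31 genes that passed in neither did. Of 435 list medians under alternatives, 42 moved by more than the spread between mice and 80, in 16 of 23 lists, changed sign. The 7 lists whose median kept its sign were those of hepatocytes, Kupffer cells, macrophage differentiation, non-classical monocytes, the cell cycle, the respiratory chain and the sirtuins.

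The cells of a mouse set the precision: with 8 to 25 wild-type cells, a gene at 1 CP10K is read from fewer than 10 UMIs per wild-type mouse.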
